A study of Mus musculus with 2 samples.

Results

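The genes of cellular iron handling described here are 8: Tfrc, Tfr2, Slc11a2 and Slc11a1 (uptake), Fth1 and Ftl1 (storage), and Slc40a1 and Hamp (export and its control). They were picked by gene name, out of 31894 genes and unnamed transcripts on a 1-colour mouse array. The array file carries 7 of the 8 names. The probe for Tfr2 stands there under its older name Trfr2 and was joined through its RefSeq accession NM_015799. In all 11 probes on 20 spots report the 8 genes.

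The cells were liver sinusoidal endothelial cells (LSEC), the fenestrated lining of the liver capillaries, from a male ob/ob mouse and a male wild-type (WT) mouse, each 8 weeks old. The ob/ob mouse lacks functional leptin and becomes obese. Livers had been digested with collagenase and both preparations had been cultured overnight with serum, so every level is that of cultured cells. Each genotype is 1 mouse and 1 array. The comparisons below therefore have no replicate check and no p-value, and the number of arrays limits their precision.

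Iron enters most cells bound to transferrin, through the transferrin receptor, and leaves the endosome through a divalent metal transporter. Inside the cell it is held in ferritin, a shell built of heavy and light chains. Ferroportin, encoded by Slc40a1, is the only known iron exporter of mammalian cells, and the liver hormone hepcidin, encoded by Hamp, binds it and causes its degradation. In the liver, Kupffer cells recover iron from the heme of old red cells, hepatocytes store iron and secrete hepcidin, and sinusoidal endothelial cells secrete the BMP ligands that induce hepcidin.

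Each signal was divided by its array's 75th percentile, which gives the scaled signal, and differences as log2 of ob/ob over WT. The error given with a difference is the SD from the scanner's error model, which holds neither the spread between mice nor that between preparations. Across the 18143 genes measured on both arrays, that is, well above background on each, its median was 0.20. Different probes of 1 gene differed with a pooled SD of 0.33 over 3688 genes. The level of 1 probe cannot be set against that of another. A sum over the probes of a list follows its brightest probes and gives no amount of a cell type.

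Of the 8 genes, 7 were measured on both arrays. Tfr2 and Slc11a1 were at least 2-fold higher in ob/ob cells, Slc40a1 was at least 2-fold lower, and Tfrc, Slc11a2, Fth1 and Ftl1 lay within 2-fold. Among all genes measured on both arrays, 5.83% were at least 2-fold higher, 2.29% at least 2-fold lower, and 8.11% one or the other. The median over the 7 genes was -0.13, beside -0.12 over all genes. Hamp was measured on the ob/ob array only. Across the whole array, 2179 genes were measured in ob/ob cells alone, beside 273 in WT cells alone. Detection in ob/ob cells alone was therefore the more common case and not particular to Hamp. Local background at the spots of the 8 genes ran from 51 to 69 on the ob/ob array and from 51 to 67.5 on the WT array, beside array medians of 60 and 63.

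**Figure D1:**
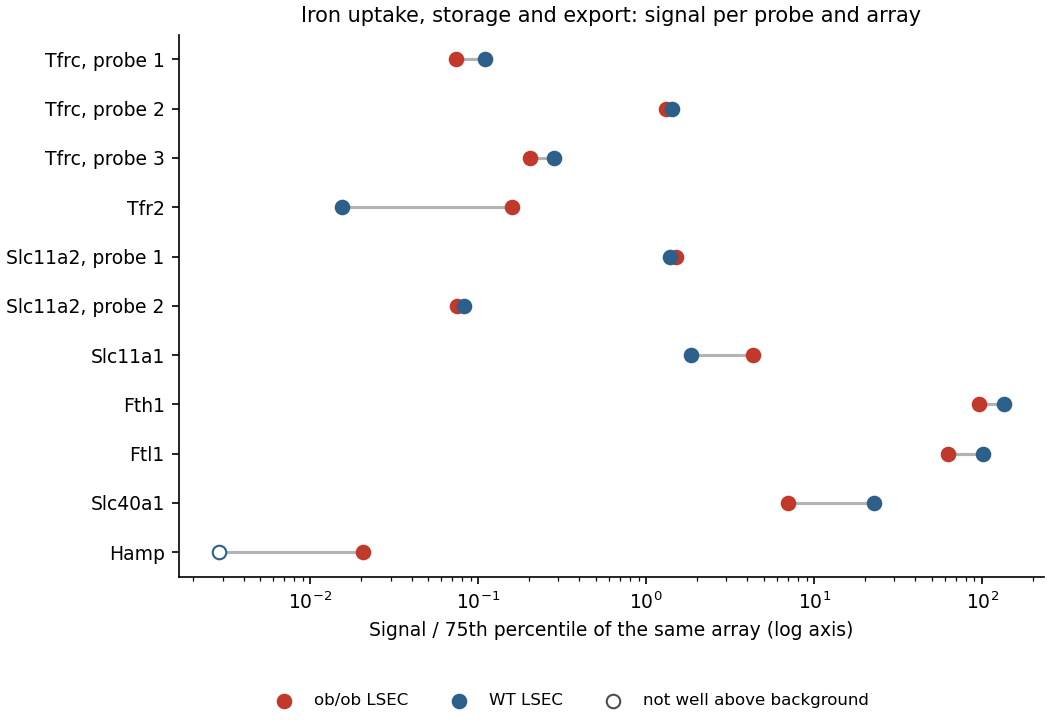
Scaled signal (log axis) of each of the 11 probes on the ob/ob array (red) and the WT array (blue), with an open circle where the probe was not well above background. Tfr2, Slc11a1 and Hamp have the ob/ob point to the right, and Slc40a1 has the ob/ob point to the left at 6.97 against 22.8.

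Whether iron export differed was read from Slc40a1. Its probe (NM_016917, chromosome 1, 45965255 to 45965314, mm9, minus strand) had a scaled signal of 6.97 in ob/ob cells and 22.8 in WT cells, from processed intensities of 9960 and 22507. The ob/ob value was the lower one by 3.27-fold, a log2 difference of -1.71 (error SD 0.20). Of the 18143 genes measured on both arrays, 63 had a lower difference. Slc40a1 stayed at least 2-fold lower in all 9 alternative settings that could be set beside it, from -1.99 to -1.44. Not all of these could change it. With 1 probe on 1 spot, the mean of probes and kept outlier spots leave -1.71. The authors' deposited ratio, scaled as here, gave -1.71 too. The only probe of the gene carries this value, so no second probe checks it.

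Macrophages and hepatocytes also express Slc40a1, and markers of both stood higher on the ob/ob array. All 14 markers of Kupffer cells and macrophages were measured on both arrays. Of these, 12 were at least 2-fold higher and 0 lower, with a median of 1.78, and their summed scaled signal was 165 in ob/ob and 59.0 in WT cells. The brightest, the scavenger receptor Marco and the apoptosis inhibitor Cd5l, differed by 1.29 and 1.31, and the phosphatidylserine receptor Timd4 differed most, by 4.63. The size for Timd4 depends on a WT intensity of 14.4, just above the dimmest WT signal well above background, 12.3. On the ob/ob array Slc40a1 stood lower and the macrophage markers stood higher. Markers of the sinusoidal endothelium had 15 of 15 members within 2-fold, a median of -0.19 and summed signals of 135 in ob/ob and 165 in WT cells. Over all genes the median was -0.12 and 8.11% lay outside 2-fold, so that count is not particular to these markers. Among them the junction cadherin Cdh5 differed by -0.44, the Fc receptor Fcgr2b by -0.22 and the angiopoietin receptor Tek by 0.88. The part of any cell type in the Slc40a1 difference was not tested. In RNA of a mixed preparation, fewer cells of a type and less RNA per cell cannot be told apart.

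Hamp (NM_032541, chromosome 7, 31727490 to 31727549, mm9, minus strand) was dim on both arrays, with an intensity of 29.6 in ob/ob cells and 2.80 in WT cells. It was well above background on the ob/ob array only. Against the dimmest signal well above background on the WT array, an intensity of 12.3, Hamp was at least 1.66-fold brighter in ob/ob cells. With normexp background correction and the 75th percentile no bound above 1-fold remained. The mouse has a second hepcidin gene beside it, Hamp2, whose probe (NM_183257, chromosome 7, 31707520 to 31707579, mm9, minus strand) was measured on both arrays. Its scaled signal was 0.149 in ob/ob and 0.0232 in WT cells, a difference of 2.68 (error SD 0.29), or -0.12 with the normexp background correction and the 75th percentile. The probes of the pair are printed as the array files give them, since they show what separates the signals of these close relatives. They were set side by side without gaps, and capitals mark the bases that differ over the 59 positions compared, of which 42 are identical.
Hamp probe: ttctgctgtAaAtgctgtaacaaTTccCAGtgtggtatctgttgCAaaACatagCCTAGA
Hamp2 probe: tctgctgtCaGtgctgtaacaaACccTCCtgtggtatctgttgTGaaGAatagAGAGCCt
The differing bases lie mostly towards the right, and each probe holds stretches shared with the other gene. How much of either signal comes from the other transcript was not tested.

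Hamp and Hamp2 both had their higher scaled signal on the ob/ob array. With normexp and the 75th percentile this was not seen, since Hamp had no bound above 1-fold and Hamp2 stood at -0.12. The 250 bases before their starts are printed to show how alike the pair is there. They come from RefSeq on GRCm38.p6, the minus strand of chr7:30944030-30944279 for Hamp and of chr7:30924182-30924431 for Hamp2. Capitals mark 3 searched motifs, read on both strands: GGCGCC, the core of the BMP response element, TTCNNNGAA, the STAT element, and TGAGTCA, the AP-1 element.
Hamp: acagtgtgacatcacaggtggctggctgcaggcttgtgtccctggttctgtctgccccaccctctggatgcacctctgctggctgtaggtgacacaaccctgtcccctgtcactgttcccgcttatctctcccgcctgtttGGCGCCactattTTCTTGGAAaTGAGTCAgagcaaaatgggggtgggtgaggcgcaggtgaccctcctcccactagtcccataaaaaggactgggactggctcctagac
Hamp2: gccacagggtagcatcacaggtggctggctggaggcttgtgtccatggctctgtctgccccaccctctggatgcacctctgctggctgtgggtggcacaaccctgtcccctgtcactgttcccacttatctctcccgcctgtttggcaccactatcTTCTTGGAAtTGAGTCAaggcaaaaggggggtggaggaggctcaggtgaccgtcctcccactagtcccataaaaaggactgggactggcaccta
Over 247 aligned bases, 227 were identical. In Hamp, GGCGCC began 109 bases before the start, TTCTTGGAA 97 and TGAGTCA 87 bases before it, with no overlap. In Hamp2, TTCTTGGAA began 94 and TGAGTCA 84 bases before the start, and GGCGCC was not found. Of 32851 promoter windows of this length, 9.59% hold GGCGCC, 7.02% hold TTCNNNGAA and 4.46% hold TGAGTCA. A match describes letters only, and a link between the motifs and the signals was not tested.

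Of the uptake genes, Tfr2 had the largest difference among the 8 genes. It encodes the second transferrin receptor, an iron sensor of hepatocytes and erythroid precursors. Its probe (NM_015799, chromosome 5, 138028646 to 138028705, mm9, plus strand) had a scaled signal of 0.159 in ob/ob cells and 0.0155 in WT cells, from intensities of 227 and 15.3. Tfr2 was 10.3-fold higher in ob/ob cells, a log2 difference of 3.36 (error SD 0.32), and 48 genes had a higher one. The WT signal stood just above the dimmest signal well above background, 12.3, and the size of the fold depends on it. With normexp background correction the difference was 0.19 with the 75th percentile and 1.17 with quantile normalization.

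Hepatocyte markers moved beside Tfr2 and Hamp. All 12 were measured on both arrays and 10 were at least 2-fold higher, with a median of 2.89 and a summed scaled signal of 27.4 in ob/ob and 4.11 in WT cells. Albumin, Alb, differed by 3.15, the plasma glycoprotein Ahsg by 1.93 and the cytochrome Cyp3a11 by 3.79. None of the 12 was below background on either array. Of erythroid markers 3 were measured on both arrays, all within 2-fold. Summed over all 8 present on the array, measured or not, the signal was 0.665 in ob/ob and 0.580 in WT cells. The brightest, Ermap and the erythropoietin receptor Epor, differed by 0.22 and 0.19, and the anion exchanger Slc4a1 by -0.42. Hba-a1, a globin measured on the ob/ob array only, was at least 1.28-fold brighter there. The hepatocyte part in the signals of Tfr2 and Hamp was not tested.

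Tfrc, the transferrin receptor of dividing and iron-hungry cells, differed little. Its brightest probe (NM_011638, chromosome 16, 32632255 to 32632314, mm9) is printed 10 times on the array. Its scaled signal ran from 1.22 to 1.36 with a median of 1.33 over 10 ob/ob spots, and from 1.39 to 1.49 with a median of 1.42 over the 9 WT spots kept. The spots of the arrays did not overlap, yet the difference was -0.13 (error SD 0.20), close to the median of all genes. Repeated spots measure the array only, not the spread between mice. The other 2 probes, which lie nearer the start of the transcript, gave -0.57 with scaled signals of 0.0734 in ob/ob and 0.109 in WT cells, and -0.48 with 0.203 in ob/ob and 0.282 in WT cells. All 3 probes were negative, and their mean was -0.39.

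Of the divalent metal transporters, Slc11a1 was above 2-fold and Slc11a2 was not. Slc11a2, also called DMT1, carries iron across the endosomal and apical membranes. Its brighter probe (NM_008732, chromosome 15, 100218333 to 100218392, mm9, minus strand) had a scaled signal of 1.497 in ob/ob and 1.382 in WT cells, a difference of 0.11 (error SD 0.20). The other, nearer the start of the transcript and listed for 2 RefSeq transcripts, had 0.0741 in ob/ob and 0.0824 in WT cells, a difference of -0.15 (error SD 0.22). Both lay within the error, and their signs disagreed.

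Slc11a1, also called NRAMP1, moves divalent metals out of the phagosome of macrophages. Its probe (NM_013612, chromosome 1, 74432161 to 74432220, mm9, plus strand) had a scaled signal of 4.32 in ob/ob and 1.84 in WT cells. Slc11a1 was 2.35-fold higher in ob/ob cells, a difference of 1.23 (error SD 0.20), and 820 genes had a higher one. The difference was 0.95 with scaling on the array median, under 2-fold, and at least 2-fold in the other 8 alternatives. Slc11a1 has 1 probe on 1 spot, so the mean of probes and kept outlier spots could not change its difference. Its difference stood beside the macrophage markers' median of 1.78, and their part in it was not tested.

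**Figure D2:**
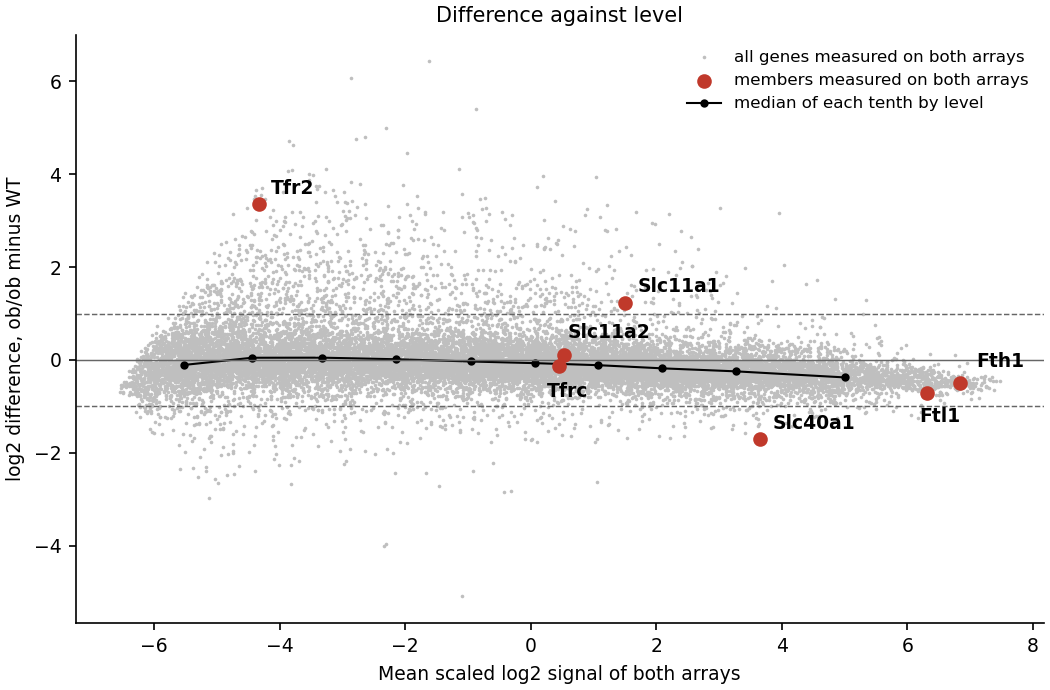
Difference of ob/ob minus WT (log2) against the mean scaled log2 signal of both arrays for all 18143 genes measured on both (grey), with the 7 members in red, the medians of 10 bins of genes by level in black and dashed lines at 2-fold. Fth1 and Ftl1 lie among the brightest genes, where the median itself is below 0, and Slc40a1 lies under the cloud of its level.

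Both ferritin chains had the lower scaled signal in ob/ob cells, though Fth1 turned to 0.03 with quantile normalization. Fth1, the heavy chain that oxidises iron on its way into the shell (NM_010239, chromosome 19, 10059485 to 10059544, mm9), had a scaled signal of 95.8 in ob/ob and 136 in WT cells, a difference of -0.50 (error SD 0.20). Ftl1, the light chain (NM_010240, chromosome 7, 52713309 to 52713368, mm9, minus strand), had 62.3 in ob/ob and 102 in WT cells, a difference of -0.70 (error SD 0.20). Neither reached 2-fold. The brightest 10% of genes had a median of -0.37, and 0.342% of genes were brighter than Fth1 and 1.19% brighter than Ftl1. Against the median of the genes nearest in level the differences were -0.04 for Fth1 and -0.25 for Ftl1, and with quantile normalization Ftl1 stood at -0.26. Fth1 thus lay near the median of genes as bright as itself. For Slc40a1 the same centring left -1.44.

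Probes of ferritin relatives were read beside these. A probe named Ftl2 lists the Ftl1 accession among its targets and differed by -0.93, with scaled signals of 69.0 in ob/ob and 132 in WT cells. A further probe, LOC434624, described in the array file as similar to ferritin light chain 2 and chosen after its value was seen, differed by -1.01. With that of Ftl1 these 3 probes were negative, from -1.01 to -0.70. All 3 lie among the brightest 10% of genes, whose median was -0.37. Centring on the level left -0.47 for Ftl2. Fthl17a, a heavy chain relative measured on the ob/ob array only, was at least 1.68-fold brighter there. Whether the 3 light chain probes read the same transcripts was not tested.

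The other genes of iron and heme handling were read as 5 lists. Their counts stand beside the 5.83% of all genes at least 2-fold higher and the 2.29% at least 2-fold lower. Heme breakdown and heme transport had 17 of 18 genes measured on both arrays, of which 3 were higher by 2-fold or more, 3 were lower by as much and 11 differed by less, with a median of -0.27, or 0.04 with quantile normalization. The 3 lower genes were Hmox1, the oxygenase that opens heme and releases its iron, Blvrb, a biliverdin reductase, and Slc48a1, the transporter that brings heme out of the phagolysosome. Hmox1 had a scaled signal of 44.5 in ob/ob and 101 in WT cells, a difference of -1.18 (error SD 0.20) and of -0.98 by its other probe. Blvrb had 12.2 in ob/ob and 27.7 in WT cells, a difference of -1.19. Slc48a1 had 8.74 in ob/ob and 19.3 in WT cells, a difference of -1.14. All 3 kept their negative sign in all 9 alternatives and fell short of 2-fold in some: with quantile normalization, with normexp and quantile normalization and with centring on the level the list had 0 genes at least 2-fold lower. After that centring Hmox1 stood at -0.74, Blvrb at -0.89 and Slc48a1 at -0.87. Blvrb and Slc48a1 have 1 measured probe each, which the mean of probes could not change. The endosomal heme and folate carrier Slc46a1, singled out after its value was seen, differed by -0.94. Spic, the transcription factor of iron-recycling macrophages, singled out likewise, differed by 0.87, and Nfe2l2, the factor NRF2 that induces Hmox1, by -0.27.

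The 3 higher genes of that list take heme and hemoglobin from plasma. The heme binder Hpx differed by 3.08, the hemoglobin binder Hp by 2.89 and the hemopexin receptor Lrp1 by 1.94. Hepatocytes secrete Hpx and Hp, and the hepatocyte markers had a median of 2.89. Their part in these differences was not tested. Cd163, the hemoglobin scavenger receptor, was below that detection limit on both arrays.

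**Figure D3:**
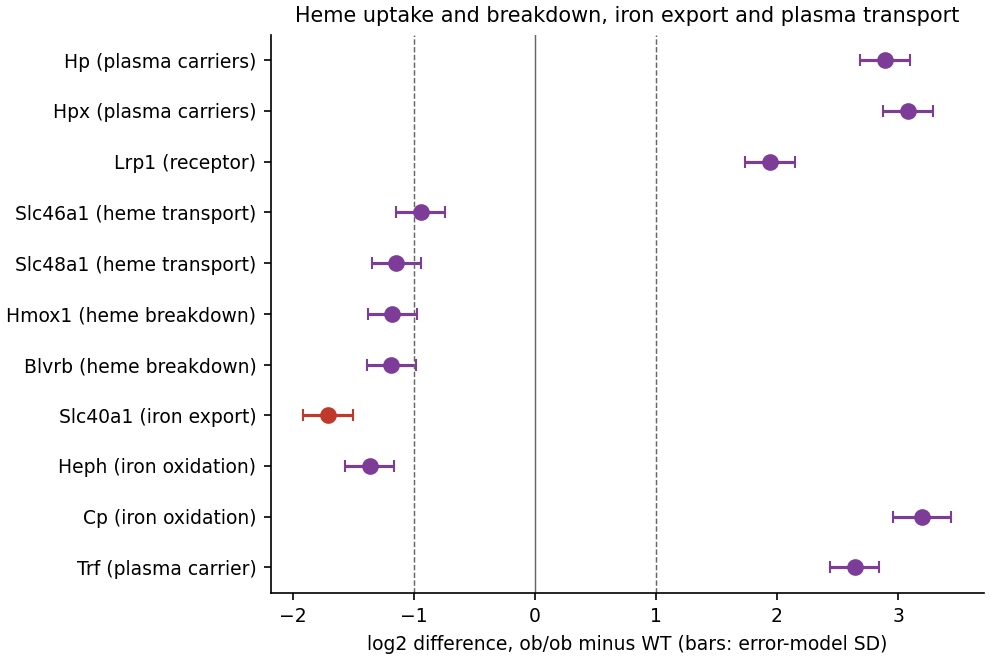
Difference of ob/ob minus WT (log2) with the error-model SD as bars, for Slc40a1 (red) and genes of plasma heme binding, heme transport, heme breakdown, iron oxidation and plasma iron transport (purple), with dashed lines at 2-fold. Slc46a1, Slc48a1, Hmox1, Blvrb, Slc40a1 and Heph lie between -1.71 and -0.94, Lrp1 lies at 1.94, and the plasma protein genes Hp, Hpx, Cp and Trf lie between 2.64 and 3.20. Genes were picked for the drawing after their values were seen. Among genes of heme breakdown and heme transport not drawn, Hmox2 differed by -0.07, Blvra by 0.09 and Flvcr1 by -0.30.

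Iron carriers, oxidases and reductases had 18 of 22 genes measured on both arrays, of which 4 were higher by 2-fold or more, 1 was lower by as much and 13 differed by less, with a median of -0.05. The lower gene was Heph, hephaestin, the membrane ferroxidase that works with ferroportin. Its scaled signal was 3.38 in ob/ob and 8.72 in WT cells, a difference of -1.36 (error SD 0.20), with -0.88 as the smallest size among its 3 probes, and it stayed at least 2-fold lower in all 9 alternatives. Ceruloplasmin, Cp, the plasma ferroxidase, differed by 3.20, transferrin, Trf, by 2.64, the metalloreductase Steap4 by 2.88 and the siderophore binder Lcn2 by 2.28. With normexp and the 75th percentile 1 of these 4, Trf, remained at least 2-fold higher. Hephl1, a relative of hephaestin, was not well above background in ob/ob cells and at least 3.66-fold brighter in WT cells, from a dim intensity of 29.6. The iron chaperone Pcbp1 and the lysosomal channel Mcoln1, the brightest of the list, differed by -0.25 and -0.39.

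The list of hepcidin regulation had 18 of 20 genes measured on both arrays, of which 1 was higher by 2-fold or more, 0 lower by as much and 17 differed by less, with a median of 0.11, or -0.17 with scaling on the array median. The higher gene was Il6, a cytokine that induces hepcidin through STAT3. Its scaled signal was 1.36 in ob/ob and 0.162 in WT cells, a difference of 3.08 (error SD 0.21). The BMP ligands that sinusoidal endothelium secretes, singled out after their values were seen, differed by -0.77 for Bmp2 and -0.39 for Bmp6. The BMP target Id1, chosen likewise, differed by 0.79, or 1.03 when centred on the level. With scaling on the array median 2 genes, Bmp2 at -1.05 and Neo1 at -1.25, were at least 2-fold lower. The brightest of the list were the hemojuvelin-binding receptor Neo1 at -0.97 and the BMP receptor Acvr1 at -0.24, of which a second probe gave 0.73. Tmprss6, the hepatocyte protease that lowers hepcidin, was at least 5.77-fold brighter in ob/ob cells, and the BMP co-receptor Hjv at least 2.32-fold brighter in WT cells from an intensity of 18.8, each not well above background on the other array.

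Genes of iron sensing and of mitochondrial iron use mostly differed by less than 2-fold, as did most genes. Of all genes measured on both arrays, 8.11% differed by 2-fold or more. All 9 genes of sensing by iron regulatory proteins and oxygen-sensing factors lay within 2-fold, with a median of -0.13. Hif1a, the oxygen-responsive factor, differed by 0.95, and it reached 2-fold in 5 of 9 alternatives, up to 1.29. The other bright gene, the ubiquitin ligase subunit Skp1, differed by -0.39. The iron regulatory proteins Aco1 and Ireb2, named after their values were seen, differed by 0.18 and -0.68, and Ireb2 passed 2-fold with normexp and the 75th percentile, at -1.02. The 26 measured genes of mitochondrial iron, heme and iron-sulfur synthesis lay within 2-fold by their brightest probes, from -0.60 to 0.34, with a median of 0.02. The probes of the mitochondrial iron importer Slc25a37, named after its values were seen, disagreed: the brighter gave -0.05 and the other -2.59, and their mean, -1.32, was over 2-fold lower in ob/ob cells. The heme synthesis enzyme Alas1 differed by -0.27 and the iron-sulfur carrier Glrx5 by 0.02.

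**Figure D4:**
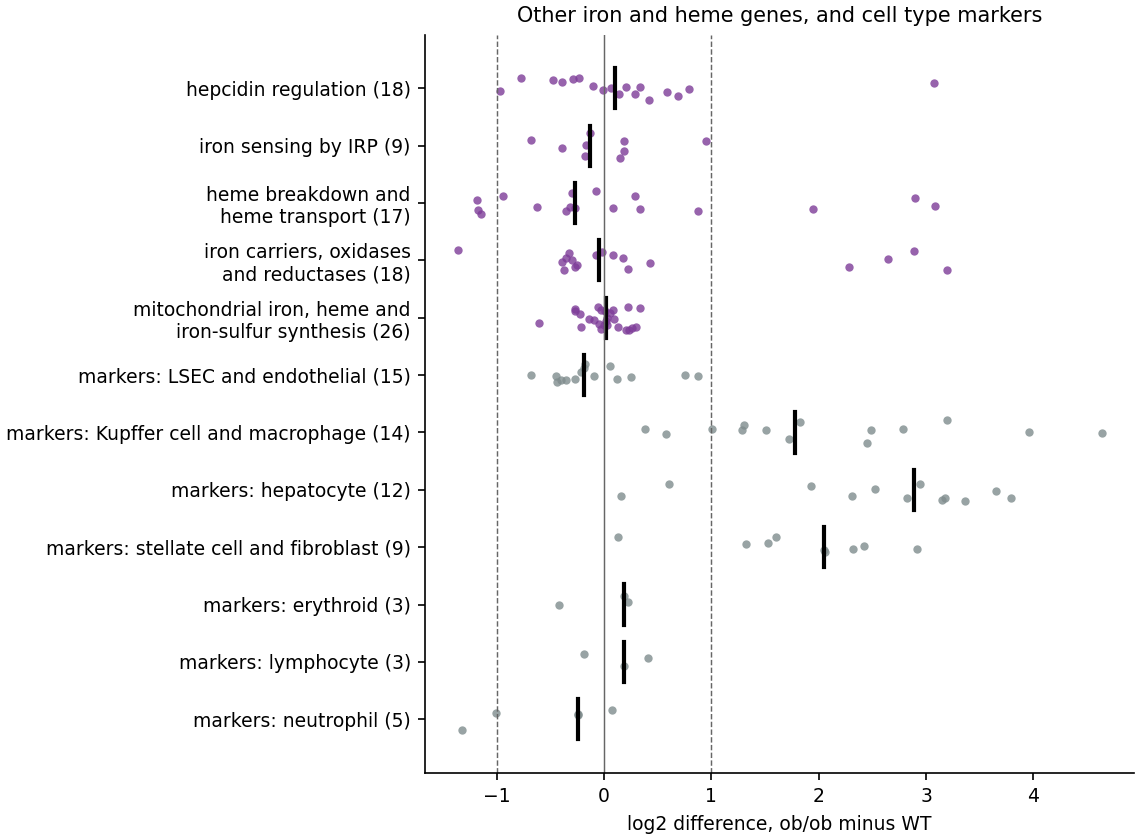
Difference of ob/ob minus WT (log2) of each gene measured on both arrays (points, number in brackets), by list, with list medians as black bars and dashed lines at 2-fold. By their brightest probes the mitochondrial genes gather between -0.60 and 0.34, and the hepatocyte, macrophage and stellate cell markers have medians of 2.89, 1.78 and 2.04. With normexp and the 75th percentile, not drawn, these medians were 1.71, 1.53 and 0.33.

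Markers of further cells were set beside these values. Stellate cell and fibroblast markers had 8 of 9 measured genes at least 2-fold higher and a median of 2.04. Summed over all 11 genes of the list, measured or not, their signal was 35.4 in ob/ob and 8.77 in WT cells. Of these sums, Dcn alone held 33.2 and 8.00. The proteoglycan Dcn differed by 2.05, Lum by 0.13 and the collagen Col3a1 by 2.92. With normexp and the 75th percentile the list median was 0.33. Col3a1 then stood at 0.91, Col1a2 at 0.61, Acta2 at 0.33, Lrat at 0.27 and Des at -0.92. Dcn stayed at least 2-fold higher in all 9 alternatives, though the mean of probes could not change its 1 measured probe. Col1a1 and Reln, measured on the ob/ob array only, were at least 8.12-fold and 1.09-fold brighter there. Lymphocyte markers had 3 of 9 genes measured on both arrays, within 2-fold, with a median of 0.19. Summed over all 9 genes, measured or not, their signal was 0.663 in ob/ob and 0.493 in WT cells. Of the ob/ob sum, 0.0804 and 0.110 came from Cd3d and Gzmb, which were not measured in WT cells. Nkg7 and the T cell receptor chain Cd3e were the brightest, at -0.19 and 0.19, and the B cell receptor chain Cd79b differed by 0.41. The T cell receptor chain Cd3d and the granzyme Gzmb, measured on the ob/ob array only, were at least 6.44-fold and 8.80-fold brighter there. Neutrophil markers had 5 of 9, with 2 lower and a median of -0.24. Summed over all 9 genes, measured or not, their signal was 37.1 in ob/ob and 43.9 in WT cells. Of these sums, 1 gene, Csf3r, held 36.5 and 43.2. The cytokine receptor Csf3r, by far the brightest, differed by -0.24, and the lower genes were the granule enzymes Elane at -1.01 and Mpo at -1.32. Others of the list went the other way: S100a8, S100a9 and the collagenase Mmp8, measured on the ob/ob array only, were at least 2.77-fold, 5.77-fold and 9.30-fold brighter there. Retnlg, measured on the WT array only, was at least 1.85-fold brighter in WT cells. Such 1-array genes are to be read beside the whole array, where 2179 genes were measured in ob/ob cells alone and 273 in WT cells alone.

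**Figure D5:**
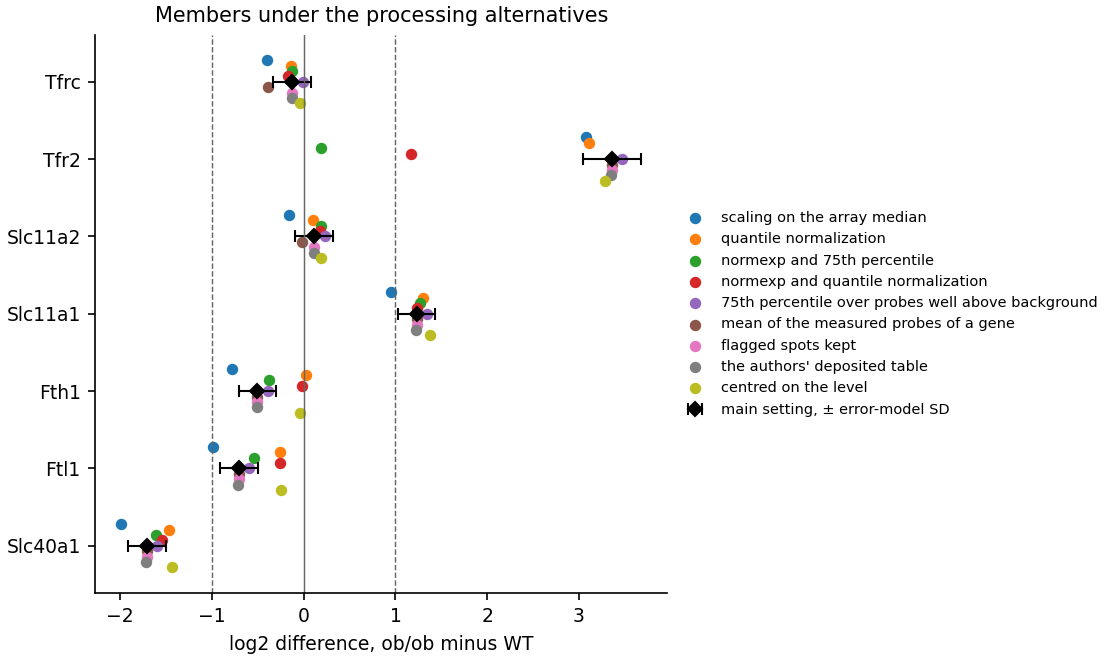
Difference of ob/ob minus WT (log2) of the 7 members measured on both arrays in the main setting (black diamond with error-model SD) and in 9 alternative settings (coloured points), with dashed lines at 2-fold. Slc40a1 lies between -1.99 and -1.44 throughout, and Tfr2 ranges from 0.19 to 3.47.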

How the data were processed

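Total RNA of 1 ob/ob and 1 WT preparation was labelled with Cy3, per the labels' protocols. The deposited file of each array gives linear intensity per spot. Agilent Feature Extraction 11.0.1.1, the version in the submitters' processing notes, made it. Per the file headers, it subtracted background, removed spatial trends and replaced signals at background by surrogates, with probe coordinates on mm9. No scaling between arrays was part of this. The authors' deposited table holds a ratio for 24868 features. Set against the scanner files it is the processed intensity over the 75th percentile of the same array, linear, not centred and in the same direction (column medians 0.648 for ob/ob and 0.614 for WT). Its values served as an alternative that repeats the main scaling.

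The processed intensity was divided by the array's 75th percentile over 43020 non-control spots, 1430 for ob/ob and 989 for WT, and put on the log2 scale. On the ob/ob array 64.8% of these spots were well above background and on the WT array 58.6%. No spot was saturated. Spots marked non-uniform or population outliers were left out, spots of a probe averaged, and a gene taken as its brightest probe. Measured means well above background at more than 50% of a probe's spots. A gene measured on 1 array was set against the higher of the dimmest measured signal and its own signal on the other. Names came from RefSeq accessions (GRCm38.p6) for 26055 of 39429 probes, from the file for 8652, and 4722 have none. Both arrays lie on 1 slide. No test was run, as each group is 1 array. Calls were made at 2-fold. The steps were run on arrays simulated from the WT spots with planted differences, which checks the code only. That run held no difference in detection between arrays, no trend with level and no spread between mice.

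Members and lists were chosen with earlier results of these data known. Named are all members, list genes at least 2-fold different (at most 6 a list) and the brightest pair of each list, and of marker lists the brightest pair and the largest difference among genes measured on both arrays; marker genes measured on 1 array were added after their values were seen. No gene was ranked by likeness to a member, since 2 arrays give no pattern. Of the 8 genes, 6 have an entry in the promoter table. Alternatives were array-median scaling, quantile normalization, limma 3.58.1 normexp correction (offset 50), a percentile over measured probes, the mean of probes, kept outlier spots, no dim filter and other folds. Centring on the median of the genes nearest in level was chosen after seeing the data. Python 3.11.15 and R 4.3.3 were used.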

Additional observations from a re-analysis of the deposited data

How the results depend on the processing

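Scaling on the array median shifts every difference by -0.28 and gave -0.78 for Fth1, -0.98 for Ftl1, 0.95 for Slc11a1, -0.16 for Slc11a2, -1.99 for Slc40a1 and -0.40 for Tfrc, with 1 of the 7 genes at least 2-fold higher. It gave medians of -0.55 for heme breakdown and transport, -0.17 for hepcidin regulation, -0.32 for iron carriers, -0.41 for iron sensing and -0.26 for mitochondrial genes. For markers it gave 1.499 (macrophage), -0.47 (LSEC), -0.089 (erythroid), 2.61 (hepatocyte), -0.091 (lymphocyte), -0.52 (neutrophil) and 1.77 (stellate). Quantile normalization gave 0.029 for Fth1, -0.26 for Ftl1 and -1.47 for Slc40a1, and medians of 0.038 for heme, 0.17 for carriers, -0.059 for lymphocyte and -0.51 for neutrophil genes.

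Normexp and the 75th percentile gave 0.19 for Tfr2, no bound over 1-fold for Hamp and 1 of the 7 genes at least 2-fold higher. Medians were then -0.0075 (heme), -0.11 (hepcidin), 1.53 (macrophage), -0.41 (erythroid), 1.71 (hepatocyte), -0.70 (lymphocyte), -1.30 (neutrophil) and 0.33 (stellate). Normexp and quantile normalization gave -0.019 for Fth1, -0.26 for Ftl1 and 1.17 for Tfr2, and medians of 0.089 (heme), 2.02 (hepatocyte) and 1.03 (stellate). Centring on the level gave -0.042 for Fth1, -0.25 for Ftl1 and -1.44 for Slc40a1, and medians of 0.037 (heme), 0.20 (carriers) and 0.021 (LSEC). The mean of its probes gave -0.39 for Tfrc. With no filter on dim probes Hamp differed by 2.87. The authors' deposited table and centring on the level give no bound for Hamp. The value of a gene counted as moved where it changed by over its error-model SD, and a count where it changed by over 1.5 times. For a list median the limit was the median error-model SD over all genes, 0.20. The cause of these moves was not tested.

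At 1.5-fold 2 of the 7 genes were lower, and at 4-fold 1 was higher and 0 lower. Of all genes, 1781 were higher and 1650 lower at 1.5-fold, and 330 and 36 at 4-fold. In place of 1057 higher and 415 lower, normexp and the 75th percentile gave 369 and 3817, normexp and quantile normalization 510 and 130, no filter on dim probes 2680 and 1635, and array-median scaling 768 and 976. The median over all genes moved by -0.28 with array-median scaling, -0.17 with normexp and the 75th percentile, 0.11 with the percentile over measured probes and 0.12 with centring on the level. The share of higher among these calls was 71.8% in the main setting, 44.0% with array-median scaling, 8.82% and 79.7% with the normexp settings in that order and 62.1% with no filter. Signal over background limits Hamp and Tfr2, whose WT signals lie at or near background. No paired analysis was possible because each group holds 1 array.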
